A study of Mus musculus with 18 samples.

Results

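Hepatocytes from the periportal side of the liver lobule were compared with hepatocytes from the pericentral side in mice fasted for 24 h. The comparison rests on the 6 libraries whose labels give a 24 h fast, 3 from each zone, of 18 libraries in the series. RNA was sequenced and given as an estimated count per gene, and 12477 genes passed the filter on low counts and were tested. All groups were wild-type (WT) male C57BL/6J mice aged 12 weeks on normal chow, and the labels name digitonin, a detergent used in liver perfusion to open the cells of 1 zone, in the separation of the zones. For 3 days the mice had food taken away for 16 h overnight, and on the day of the experiment their drinking water held 20% sucrose. Food and sucrose water were then removed, and the 24 h group was killed at hour 13 of the next day, the same clock hour as the fed mice. The labels of the fed mice read Fed4h. The 8 h fast group was killed at hour 21. The labels do not say whether the replicates, or the zones of 1 replicate number, came from separate mice, so p-values measure only the spread between these libraries, which may be technical.

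The liver lobule is supplied with blood at its portal edge and drained by a central vein, and hepatocytes at the ends of this route do different work. Periportal hepatocytes are known for urea synthesis, breakdown of amino acids and glucose production, and pericentral hepatocytes for glutamine synthesis, bile acid synthesis and the metabolism of drugs by cytochromes P450. Wnt ligands from the central vein keep the pericentral program active through beta-catenin. In a fast the liver turns from storing glucose to making glucose and ketone bodies.

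Total counts in the 6 libraries at 24 h ranged from 1.84e+07 to 2.64e+07, over 15372 to 15819 detected genes. The mitochondrial share was 6.93% to 9.8%, and the share of the 10 most abundant genes was 18.2% to 26.6%. Expression is given in CPM, counts scaled to a common library size. Log2 fold changes are periportal minus pericentral throughout, so a negative value means a higher level in pericentral hepatocytes. A gene is called when its adjusted p in the quasi-likelihood test of edgeR is under 0.05. Hepatocyte markers were high in both zones: albumin (Alb) stood at 49300, 79400 and 71100 CPM in pericentral replicates 1 to 3 and at 110000, 133000 and 160000 CPM in the periportal ones. Alb was itself called (log2 fold change 1.01, edgeR adjusted p = 0.00806), a call lost without pericentral replicate 1 or periportal replicate 3. It was the 1 called member of 12 hepatocyte markers (1.7% of all genes were called higher). The log2 fold change was positive for 11 of the 12.

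Pericentral replicate 2 stood apart from the other pericentral libraries at 24 h. Glul, the glutamine synthetase gene that marks the hepatocytes next to the central vein, stood at 928, 111 and 707 CPM in pericentral replicates 1 to 3 and at 121, 175 and 111 CPM in the periportal replicates. The level in pericentral replicate 2 thus lay within the periportal range. The median of 8 pericentral markers was lower in this library than in the other pericentral ones by a log2 difference of -1.14, and the median of 9 periportal markers was higher by 1.13. Its Cyp2e1 level, 10300 CPM, remained far above the 417 to 1830 CPM of the periportal libraries. Results are therefore given with and without pericentral replicate 2. In bulk samples, fewer cells of a type and less RNA per cell cannot be told apart.

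**Figure D1:**
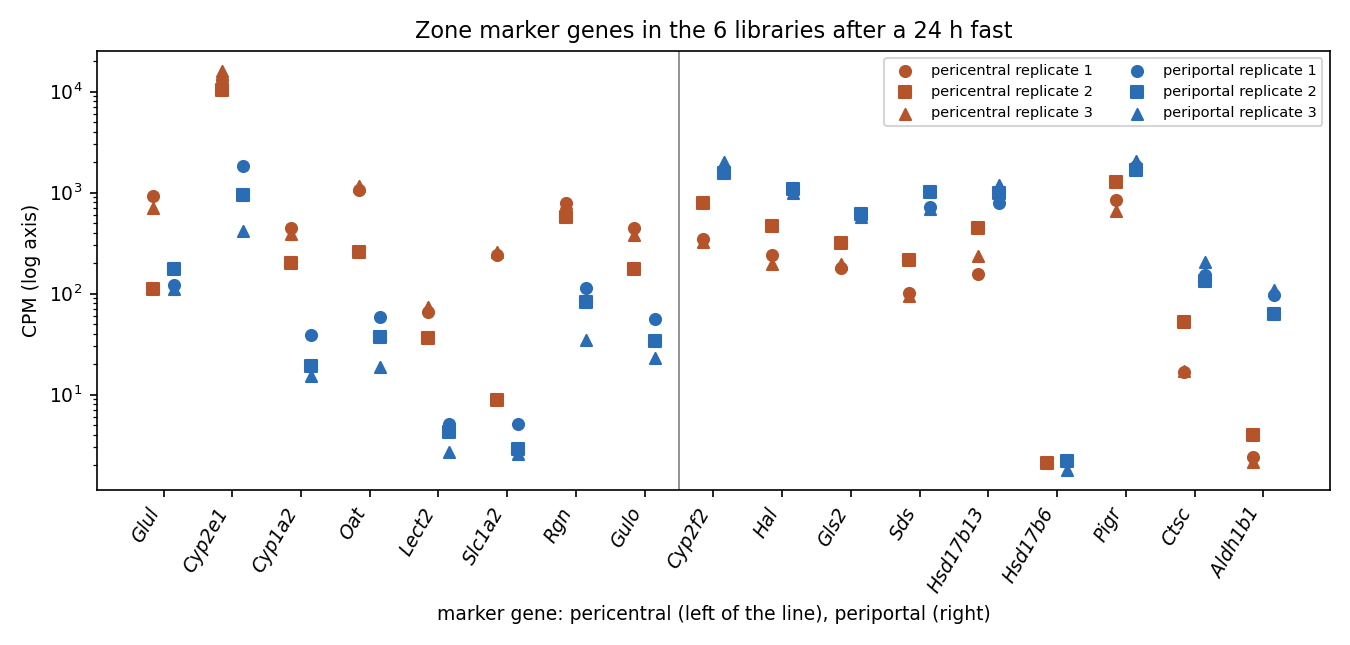
CPM on a log axis (vertical) of 8 pericentral and 9 periportal marker genes (horizontal) in the 3 pericentral and 3 periportal libraries after a 24 h fast, with 1 point per library. Pericentral replicate 2 (squares) lies on the periportal side of the other pericentral libraries for Glul, Oat and Slc1a2, and values of 0 (3 libraries of Hsd17b6) cannot be drawn on this axis.

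The zones remained widely different after 24 h without food. Of 12477 genes, 520 were called (4.17%), 212 of them higher in periportal hepatocytes (1.7% of genes) and 308 higher in pericentral hepatocytes (2.47%). The median size of the called differences was 1.16 on the log2 scale for genes higher in periportal hepatocytes and 0.91 for genes lower there. Differences over 2 on the log2 scale numbered 48 in the periportal direction and 82 in the pericentral direction, and 51 of the latter were over 3. The 3 periportal and 3 pericentral libraries did not overlap for 2763 genes (22.1% of those tested), which included 512 of the 520 called. Without pericentral replicate 2, 457 of 12733 genes were called (3.59%), 179 higher (1.41%) and 278 lower (2.18%) in periportal hepatocytes. The lists with and without that library shared 383 genes, 73.7% of the 520 and 83.8% of the 457, and all 383 had the same direction. Among these, 318 had a larger absolute log2 fold change without it, and the median ratio of the fold without it to the fold with it was 1.086. The count depended on single libraries: it was 332 without pericentral replicate 1, 308 without pericentral replicate 3, 304 without periportal replicate 2 and 252 without periportal replicate 3.

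Deviations of same-numbered libraries of the zones from their group means correlated weakly at 24 h (r = 0.121, 0.165 and 0.147). The replicate number was therefore also used as a block. With the replicate block within each feeding state, 473 genes were called with all libraries and 269 without pericentral replicate 2. In the latter fit periportal replicate 2 had no partner and carried no weight in the zone difference, so both libraries of that number were lost to it. Among the genes named below, it ended the calls of Serpina12 (2.62), Slc3a1 (2.59), Ctsc (2.71), Mup20 (2.03), Ppargc1a (1.11), Cfi (0.77), Fh1 (0.68), Idh1 (-0.42), Cpox (-0.58), Bdh1 (-0.93), Nrep (-1.12) and Fmo2 (-2.15), given with their log2 fold changes in that fit. It added the calls of Arg1 (0.58), Snhg11 (-0.80), Ces2c (-2.31) and Mup17 (-3.71). When only the 6 libraries at 24 h were fitted, the calls of Serpina12, Cryl1, Btg2, Mup19, Mup20, Ahr, Cyp7a1, Fmo2, Aqp4, Nrep, Aldh4a1, Amdhd1, Gapdh, Khk, Fh1, Idh1, Idh2 and Gsr were lost, besides those given below.

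Pericentral markers were called higher in pericentral hepatocytes for 7 of the 8 tested members of the list (2.47% over all genes). Without pericentral replicate 2 the count was 8 of 8 (2.18% over all genes). The median log2 fold change of the list was -3.73, or -3.94 without that library, against 0.001 over all genes tested. Slc1a2, a glutamate transporter, had the most negative value of the list, with 241, 8.82 and 256 CPM in pericentral replicates 1 to 3 and 5.09, 2.87 and 2.57 CPM in the periportal ones. The log2 fold change of -5.60 had an SE of 0.95 and an edgeR adjusted p of 0.00413 with all libraries, and the value became -6.17 (edgeR adjusted p = 1.5e-05) without pericentral replicate 2. Pericentral replicate 2 lay nearer to the periportal libraries than to its own group for this gene, although the groups did not overlap. Oat, ornithine aminotransferase, stood at 1050, 257 and 1160 CPM against 58.2, 37.3 and 18.9 CPM, a log2 fold change of -4.43 (SE 0.67, edgeR adjusted p = 0.00194). The calls of Slc1a2 and Oat were both lost when only the 6 libraries at 24 h were fitted, and that of Slc1a2 also with limma-voom, with adjusted p-values of up to 0.168 and 0.0621 over all edgeR, DESeq2 and limma alternatives.

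Glul was the member that did not pass the test with all libraries. The log2 fold change of -2.10 had an SE of 0.58 and an edgeR adjusted p of 0.0623, and it became -2.59 (edgeR adjusted p = 0.000996) when pericentral replicate 2 was left out. With DESeq2, Glul was called with all libraries. Cyp2e1, a cytochrome P450 that handles ethanol and acetone, stood at 13000, 10300 and 16100 CPM in pericentral libraries and at 1830, 944 and 417 CPM in periportal ones. This gene separated the zones in every library, with a log2 fold change of -3.63 (SE 0.58, edgeR adjusted p = 0.0026). Cyp1a2, a caffeine-metabolising cytochrome P450, and Lect2, a secreted protein of hepatocytes, had log2 fold changes of -3.83 and -3.87 and were called in all alternatives. The same direction held for Rgn, a calcium-binding protein, at -3.21 and Gulo, the last enzyme of vitamin C synthesis, at -3.15. Both of these calls were lost without periportal replicate 3, at edgeR adjusted p-values of up to 0.052 and 0.0549.

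Periportal markers were called higher in periportal hepatocytes for 8 of 9 members, with and without pericentral replicate 2 (1.7% and 1.41% over all genes). The ninth, Hsd17b6, was at 0 in 3 of the 6 libraries. The median log2 fold change of the list was 1.83, and 2.41 without that library. Sds, serine dehydratase, stood at 101, 215 and 94.8 CPM in the pericentral libraries and at 713, 1010 and 689 CPM in the periportal ones. The log2 fold change of 2.56 had an SE of 0.43 and an edgeR adjusted p of 0.0035, and the value became 3.04 without pericentral replicate 2. Hal, histidine ammonia lyase, stood at 243, 466 and 196 CPM against 1050, 1080 and 993 CPM. Pericentral replicate 2 was the highest pericentral library for both genes but stayed below every periportal one. Gls2, the liver glutaminase that opens glutamine breakdown, had a log2 fold change of 1.34 (SE 0.19, edgeR adjusted p = 0.00059), and Cyp2f2, a periportal cytochrome P450, one of 1.86 (SE 0.33, edgeR adjusted p = 0.00379). When only the 6 libraries at 24 h were fitted, 4 of the 9 members were called, and the calls of Cyp2f2, Hsd17b13, Pigr and Ctsc were lost. Aldh1b1, a mitochondrial aldehyde dehydrogenase, was the most different, at 2.42, 4.01 and 2.17 CPM against 95.7, 62.9 and 108 CPM and a log2 fold change of 4.93 (SE 0.46, edgeR adjusted p = 0.000112).

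Of 16 tested genes known as targets or regulators of Wnt and beta-catenin signalling, 8 were higher in pericentral hepatocytes and 1 was lower there (2.47% and 1.7% over all genes). The counts were the same without pericentral replicate 2, although Nkd1 (log2 fold change -2.53) then replaced another pericentral member. The median log2 fold change was -1.36, and -1.30 without that library. Axin2, a feedback inhibitor of the pathway, stood at 7.31, 2.5 and 6.52 CPM in the pericentral libraries and at 0.671, 0.748 and 0.552 CPM in the periportal ones, a log2 fold change of -3.03 (SE 0.52, edgeR adjusted p = 0.00289). Lgr5, a receptor for R-spondins that strengthen Wnt signals, stood at 4.57, 1.29 and 3.16 CPM against 0.447, 0.249 and 0.23 CPM, a log2 fold change of -3.29 (SE 0.45, edgeR adjusted p = 0.000417). For both genes pericentral replicate 2 was the lowest pericentral library and still lay above all periportal ones. Rnf43, a ubiquitin ligase that removes Wnt receptors, and Notum, a secreted enzyme that inactivates Wnt ligands, had log2 fold changes of -1.55 and -1.84. Tbx3, a transcription factor, and Tnfrsf19, a membrane receptor, were at -3.52 and -3.08. The 1 member higher in periportal hepatocytes was Ctnnbip1, which encodes an inhibitor that binds beta-catenin, at 4.92, 10.1 and 4.55 CPM in pericentral and 27.6, 22.7 and 24.1 CPM in periportal libraries. The log2 fold change of 1.92 had an SE of 0.22 and an edgeR adjusted p of 0.000159. The genes for beta-catenin itself (Ctnnb1), Apc, Tcf7l2 and Lgr4 were tested and not called. The ligand genes Wnt2, Wnt9b and Rspo3, made by central vein endothelial cells, did not pass the filter on low counts.

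The promoters of these genes are shown because several members moved in the same direction and the factors that carry the Wnt signal, TCF and LEF, bind a short core. The motif searched was CTTTGAT, on both strands, in windows of 250 bases before to 50 bases after each start site (RefSeq, GRCm38.p6). It occurred in 16 of 233 matched genes called lower in periportal hepatocytes (6.87%), 5 of 158 called higher (3.16%), 305 of 9621 tested genes (3.17%) and 1160 of 27025 genes of the whole promoter table (4.29%). Of the 15 pericentral markers and Wnt targets called higher in pericentral hepatocytes, 9 had a promoter in the table and 4 of these held the motif. A second motif, the cAMP response element TGACGTCA, through which glucagon signals reach genes, occurred in 4 of the 233 (1.72%), 8 of the 158 (5.06%) and 339 of the 9621 (3.52%). These are counts of letters, with no test, and a match is not a binding site. The promoters with the TCF/LEF core follow, 5′ to 3′ on the strand of the gene, with the core in capitals on either strand. Sp5, a transcription factor gene, lies on the plus strand at chr2:70474673-70474972, Slc1a2 on the plus strand at chr2:102706188-102706487, Lect2 on the minus strand at chr13:56548489-56548788 and Tnfrsf19, at 1 of its start sites, on the minus strand at chr14:61037938-61038237.
Sp5: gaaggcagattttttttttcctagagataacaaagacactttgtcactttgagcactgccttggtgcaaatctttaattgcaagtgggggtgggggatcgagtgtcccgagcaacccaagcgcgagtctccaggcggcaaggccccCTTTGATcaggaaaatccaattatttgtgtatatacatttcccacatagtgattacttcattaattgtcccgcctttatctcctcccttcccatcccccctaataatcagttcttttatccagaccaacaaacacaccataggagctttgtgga
Slc1a2: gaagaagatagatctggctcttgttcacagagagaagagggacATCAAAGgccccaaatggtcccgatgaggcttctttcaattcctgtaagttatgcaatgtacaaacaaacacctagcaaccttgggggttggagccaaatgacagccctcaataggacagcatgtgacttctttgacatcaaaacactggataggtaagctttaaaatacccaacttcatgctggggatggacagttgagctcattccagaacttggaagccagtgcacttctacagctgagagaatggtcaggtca
Lect2: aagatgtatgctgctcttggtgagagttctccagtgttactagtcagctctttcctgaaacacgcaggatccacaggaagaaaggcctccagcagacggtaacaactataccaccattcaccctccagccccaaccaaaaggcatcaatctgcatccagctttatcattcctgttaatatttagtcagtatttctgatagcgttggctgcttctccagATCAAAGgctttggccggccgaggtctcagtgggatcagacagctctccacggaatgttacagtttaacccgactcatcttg
Tnfrsf19: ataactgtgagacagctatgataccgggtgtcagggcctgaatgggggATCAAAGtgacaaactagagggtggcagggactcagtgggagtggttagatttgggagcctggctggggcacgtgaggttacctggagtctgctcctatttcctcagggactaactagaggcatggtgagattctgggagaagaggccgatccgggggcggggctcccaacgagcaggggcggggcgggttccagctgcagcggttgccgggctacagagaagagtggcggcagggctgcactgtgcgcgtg
Sp5 itself was near the limit of detection at 0.703, 0.11 and 0.445 CPM in pericentral and 0.0559, 0 and 0 CPM in periportal libraries, and its call was lost when pericentral replicate 1, periportal replicate 2 or periportal replicate 3 was left out. The core began at position -104 from the start site in Sp5, -207 in Slc1a2, -32 in Lect2 and -202 in Tnfrsf19. The first of these promoters carried the core on the strand of the gene and the others on the opposite strand.

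In the list of cytochromes P450, 10 of 32 tested members were higher in pericentral hepatocytes and 1 was lower there (2.47% and 1.7% over all genes). These counts were the same without pericentral replicate 2, but the members were not. Cyp2c55 (log2 fold change -2.02) then replaced another pericentral member, and Cyp2a12 (1.04) replaced the periportal one. Cyp2e1, Cyp1a2, Cyp2f2 and Cyp7a1 were counted in other lists. The list's median log2 fold change was -0.46, and -0.60 without pericentral replicate 2. The Cyp2c family, which oxidises drugs and fatty acids, made up most of the pericentral calls. Cyp2c50 stood at 774, 808 and 1110 CPM in pericentral libraries and at 153, 169 and 69.7 CPM in periportal ones, a log2 fold change of -2.78 (SE 0.38, edgeR adjusted p = 0.000671). Cyp2c54 stood at 331, 396 and 436 CPM against 82.8, 71.4 and 41.2 CPM, a log2 fold change of -2.57 (SE 0.38, edgeR adjusted p = 0.00133). Pericentral replicate 2 was not low for either gene. Cyp2c37 and Cyp2c39 had log2 fold changes of -3.51 and -3.91, and Cyp2a5, which oxidises coumarin and nicotine, had one of -4.47 (SE 0.80, edgeR adjusted p = 0.00573). The calls of Cyp2c37 and Cyp2a5 were lost when only the 6 libraries at 24 h were fitted. Members of the Cyp2a and Cyp2c families are similar in sequence, so reads may have been shared among copies and their single levels are uncertain. The member of this list called higher in periportal hepatocytes with all libraries was Cyp17a1, a steroid hydroxylase. Its levels were 3.52, 5.85 and 4.3 CPM against 21, 42.5 and 25 CPM. The log2 fold change of 2.69 (SE 0.61) had an edgeR adjusted p of 0.024, and the call was lost when any library but periportal replicate 1 was left out, with 2.92 and an edgeR adjusted p of 0.055 without pericentral replicate 2. Of 21 liver transcription factors 1 was called, higher in pericentral hepatocytes (2.47% over all genes). It was the dioxin receptor Ahr, a regulator of cytochromes P450, at 76.3, 28.6 and 55.5 CPM in pericentral and 18.2, 7.73 and 9.89 CPM in periportal libraries (log2 fold change -2.17, SE 0.42, edgeR adjusted p = 0.00887). That call was lost without periportal replicate 2 or 3. Nr1i3, the xenobiotic receptor CAR, had a log2 fold change of -0.92 (edgeR adjusted p = 0.0537). Nr1i3 was called with DESeq2, with a filter at a mean of 1 CPM, with the 6 libraries alone and without periportal replicate 1.

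Conjugating enzymes, which attach glutathione, glucuronic acid or sulfate to make compounds soluble, divided between the zones. Of 42 tested, 8 were higher in pericentral and 4 in periportal hepatocytes (2.47% and 1.7% over all genes). Without pericentral replicate 2 the counts were 7 and 2 (2.18% and 1.41% over all genes). Sult2a8, a sulfotransferase, stood at 629, 728 and 587 CPM in pericentral and 251, 198 and 253 CPM in periportal libraries, a log2 fold change of -1.47 (SE 0.20, edgeR adjusted p = 0.000417). Ugt1a9, a glucuronosyltransferase, went the other way, at 112, 141 and 148 CPM against 407, 339 and 469 CPM, a log2 fold change of 1.60 (SE 0.30, edgeR adjusted p = 0.00561). Its neighbours Ugt1a1 and Ugt1a6b were at -0.77 each. The Ugt1a transcripts share most of their exons, so the split of reads among them is uncertain. Sult5a1 was higher in periportal hepatocytes by 2.88 (SE 0.41, edgeR adjusted p = 0.000751), at 0.297 to 1.29 CPM in pericentral and 4.07 to 8.44 CPM in periportal libraries. Gstp1, a glutathione transferase, had a log2 fold change of 0.99 (SE 0.22, edgeR adjusted p = 0.0169). That call was lost without pericentral replicate 2 or 3 and without periportal replicate 1 or 3.

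Bile acid genes were higher in pericentral hepatocytes for 6 of 19 members, or 5 without pericentral replicate 2 (2.47% and 2.18% over all genes). No member was called higher in periportal hepatocytes. Slco1b2, an uptake transporter of the sinusoidal membrane, stood at 1180, 1130 and 1350 CPM in pericentral and 501, 440 and 388 CPM in periportal libraries (log2 fold change -1.46, SE 0.16, edgeR adjusted p = 0.000112). Hsd3b7, an early enzyme of the synthesis pathway, stood at 286, 177 and 213 CPM against 95.1, 87.3 and 71.6 CPM (log2 fold change -1.41, SE 0.18, edgeR adjusted p = 0.000311). Cyp27a1, which opens the alternative pathway, had a log2 fold change of -1.21 and Abcc2, an export pump of the bile canaliculus, one of -0.74, and these 4 calls held in every alternative. Cyp7a1, the rate-limiting enzyme of bile acid synthesis, varied most, at 491, 282 and 213 CPM in pericentral and 82.8, 20.5 and 7.45 CPM in periportal libraries. The libraries did not overlap, and the log2 fold change of -3.16 had an SE of 0.75 and an edgeR adjusted p of 0.0308. Its call was lost without pericentral replicate 1 or 2 or periportal replicate 2 or 3, and its log2 fold change became -3.26 (edgeR adjusted p = 0.0504) without pericentral replicate 2.

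Heme synthesis and breakdown genes were higher in pericentral hepatocytes for 4 of 11 members, or 3 without pericentral replicate 2 (2.47% and 2.18% over all genes). Blvrb, a biliverdin reductase, stood at 134, 107 and 151 CPM in pericentral and 49.6, 50.4 and 39.9 CPM in periportal libraries (log2 fold change -1.49, SE 0.19, edgeR adjusted p = 0.000305). Alad, the second enzyme of heme synthesis, had a log2 fold change of -0.76 (SE 0.10, edgeR adjusted p = 0.000305). Cpox, a later step of the pathway, was at -0.59, and its call was lost without pericentral replicate 1 or 3 or any 1 of the 3 periportal libraries. In the list of iron handling genes, 0 of 11 were called, where 4.17% of all genes were called in either direction. Hamp, the iron hormone hepcidin, had 182 to 738 CPM in pericentral libraries and 95.6 to 226 CPM in periportal ones (log2 fold change -1.84, edgeR adjusted p = 0.0821). Hamp was called with DESeq2 and when pericentral replicate 3 was left out.

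Of 38 members of the amino acid breakdown list outside the marker lists, 5 were higher in periportal and 1 in pericentral hepatocytes, with and without pericentral replicate 2, and the median of the list was -0.03. Over all genes, 1.7% were called higher in periportal and 2.47% in pericentral hepatocytes. The histidine pathway had Uroc1, urocanase, at 286, 406 and 284 CPM in pericentral and 760, 659 and 726 CPM in periportal libraries (log2 fold change 1.14, SE 0.14, edgeR adjusted p = 0.000241). Ftcd, which carries the pathway's last steps, stood at 172, 264 and 165 CPM against 472, 523 and 497 CPM (log2 fold change 1.31, SE 0.19, edgeR adjusted p = 0.00059). Amdhd1, the imidazolonepropionase of the same pathway, stood at 104, 175 and 115 CPM against 217, 258 and 201 CPM (log2 fold change 0.78, SE 0.20, edgeR adjusted p = 0.0401). The call of Amdhd1 was lost in 8 of 15 alternatives, among them the replicate block and leaving out any 1 library but pericentral replicate 2. In Hal and these 3 genes pericentral replicate 2 was the highest pericentral library. Gldc, the glycine decarboxylase of the glycine cleavage system, stood at 111, 84.6 and 80.5 CPM against 316, 326 and 406 CPM (log2 fold change 1.93, SE 0.20, edgeR adjusted p = 0.000112). Pericentral replicate 2 lay between its fellow libraries for Gldc. Sdsl, a serine dehydratase-like enzyme, had a log2 fold change of 2.12 (SE 0.36, edgeR adjusted p = 0.0035). The member higher in pericentral hepatocytes was Aldh4a1, of proline breakdown, at -0.44, and its call was lost without pericentral replicate 1 or 3 or periportal replicate 2 or 3. Cbs, which commits homocysteine to cysteine synthesis, was the 1 called gene of 11 in the methionine cycle list (log2 fold change 0.73, SE 0.13, edgeR adjusted p = 0.00319).

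In the urea cycle 1 of 9 genes was called, higher in periportal hepatocytes (1.7% over all genes). The libraries of the zones did not overlap for 7 of the 9 (22.1% over all genes). The called gene was Asl, argininosuccinate lyase, at 962, 784 and 837 CPM in pericentral and 1630, 1660 and 1580 CPM in periportal libraries. The log2 fold change of 0.92 had an SE of 0.21 and an edgeR adjusted p of 0.0158, and the value became 0.85 (edgeR adjusted p = 0.0624) without pericentral replicate 2. The call was also lost without pericentral replicate 3 or periportal replicate 2 or 3. Without pericentral replicate 2, Otc, ornithine transcarbamylase, was called instead (log2 fold change 0.51, edgeR adjusted p = 0.0381). Cps1, the enzyme that brings ammonia into the cycle, stood at 5860, 5090 and 5670 CPM against 5870, 5520 and 6250 CPM, and the zones overlapped. Ass1 and Arg1 had log2 fold changes of 0.60 (edgeR adjusted p = 0.111) and 0.58 (edgeR adjusted p = 0.0956), and for both genes the libraries of the zones did not overlap. Arg1 was called with either replicate block, with DESeq2 and when only the 6 libraries at 24 h were fitted, and Ass1 in the last 2 of these. The list had 2 members called with the replicate block within each feeding state, 3 with 1 block over all states or with the 6 libraries alone, and 4 with DESeq2.

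In the list of amino acid transporters, 2 of 14 were higher in periportal and 1 in pericentral hepatocytes (1.7% and 2.47% over all genes). Without pericentral replicate 2 the counts were 2 and 2. The list holds the mitochondrial carrier Slc25a47, while the glutamate transporter Slc1a2 was counted with the pericentral markers instead. Slc25a47, a mitochondrial carrier of the liver, stood at 598, 623 and 651 CPM in pericentral and 935, 1510 and 1510 CPM in periportal libraries (log2 fold change 1.08, SE 0.19, edgeR adjusted p = 0.00363). Slc16a10, a carrier of aromatic amino acids, was higher in pericentral hepatocytes, at 231, 114 and 201 CPM against 80, 68.3 and 78.4 CPM (log2 fold change -1.27, SE 0.21, edgeR adjusted p = 0.00243), a call lost when only the 6 libraries were fitted. Slc3a1, a subunit of the cystine transporter, had a log2 fold change of 2.58 (SE 0.56, edgeR adjusted p = 0.0183), and its call was lost without pericentral replicate 1 or 3 or periportal replicate 3.

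The gluconeogenesis list had a median log2 fold change of 0.36. Of its 20 members 3 were called higher in periportal hepatocytes, and 2 without pericentral replicate 2 (1.7% and 1.41% over all genes). The count was 6 when only the 6 libraries at 24 h were fitted, 5 with DESeq2 or with the replicate block within each feeding state, and 1 without pericentral replicate 1 or periportal replicate 2. The libraries of the zones did not overlap for 16 of the 20, against 22.1% of all genes tested. In fed mice 5 and at 8 h of fasting 10 of the same 20 were called, where 3.89% and 3.72% of all genes were called higher in periportal hepatocytes, and the difference in these counts was not tested. Fbp1, fructose-1,6-bisphosphatase, stood at 702, 892 and 812 CPM in pericentral and 1330, 1390 and 1450 CPM in periportal libraries (log2 fold change 0.79, SE 0.12, edgeR adjusted p = 0.000902). Eno1 and Gapdh, enzymes shared with glycolysis, had log2 fold changes of 0.68 and 0.65. The call of Eno1 was lost without pericentral replicate 1 or periportal replicate 2, and that of Gapdh without pericentral replicate 1 or 2 or periportal replicate 2 or 3. Pck1, the cytosolic enzyme that commits oxaloacetate to glucose, stood at 4790, 4840 and 4820 CPM against 6030, 5500 and 6220 CPM, a log2 fold change of 0.30 (SE 0.46, edgeR adjusted p = 0.813). The zones did not overlap for this gene, whose SE comes from a spread estimated over all 18 libraries. G6pc, which releases free glucose, stood at 726, 438 and 687 CPM against 892, 1000 and 1600 CPM (log2 fold change 0.92, SE 0.34, edgeR adjusted p = 0.176). Of 15 glucagon and insulin signalling genes 1 was called, higher in periportal hepatocytes (1.7% over all genes). It was Ppargc1a, a coactivator induced by glucagon, at 18.4, 12.6 and 21 CPM in pericentral and 33.5, 41.7 and 35.1 CPM in periportal libraries (log2 fold change 1.09, SE 0.23, edgeR adjusted p = 0.0106). That call was lost without periportal replicate 2.

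The 4 lists that bear on lipid metabolism had 0 or 1 member called each, where 4.17% of all genes were called in either direction. Fatty acid oxidation and ketogenesis had 1 of 26 members called, and 0 without pericentral replicate 2: Bdh1, which interconverts the ketone bodies, at -0.95 (SE 0.25, edgeR adjusted p = 0.0431), a call lost without any 1 of the 6 libraries. Of the 26, 21 had a negative log2 fold change and 5 a positive one. The libraries of the zones did not overlap for 15 of them (22.1% over all genes). For the cholesterol synthesis, glycolysis and lipogenesis, and PPARalpha target lists below, the counts without overlap were 6 of 21, 8 of 21 and 9 of 19. Cholesterol synthesis had 0 of 21 called, and glycolysis and lipogenesis 1 of 21, and 0 without pericentral replicate 2. That 1 was Khk, ketohexokinase, which phosphorylates fructose (log2 fold change 0.90, SE 0.24, edgeR adjusted p = 0.0473), and its call was lost without any 1 library but pericentral replicate 3. Fasn, fatty acid synthase, had a log2 fold change of 0.94 (edgeR adjusted p = 0.232). Of 19 targets of PPARalpha, the receptor that drives the fasting response to fatty acids, 1 was called, Cd36. This fatty acid uptake receptor stood at 66, 43.5 and 73.1 CPM in pericentral and 5.87, 3.03 and 5.93 CPM in periportal libraries (log2 fold change -3.63, SE 0.66, edgeR adjusted p = 0.00659). Fgf21 and Vnn1, other members of that list, had log2 fold changes of 1.37 and -1.27 with edgeR adjusted p-values of 0.369 and 0.0845. Vnn1 was called with DESeq2, with limma-voom and when only the 6 libraries at 24 h were fitted. Oxidative phosphorylation had 0 of 25 called, the ATF4 target list 0 of 12, and hypoxia targets 1 of 14, Egln3, a prolyl hydroxylase that senses oxygen, at -1.81 (SE 0.25, edgeR adjusted p = 0.000582). The tricarboxylic acid cycle had 1 of 11 called in each direction, Fh1 (0.67) and Idh2 (-0.43), and the call of Fh1 was lost without any library but periportal replicate 1 and that of Idh2 without any but pericentral replicate 2. Of 12 NRF2 targets and NADPH enzymes, Gsr (-0.39) and Idh1 (-0.42) were called, and without pericentral replicate 2 only Gsr was. The call of Gsr was lost without pericentral replicate 3 or periportal replicate 1 or 2, and that of Idh1 without any library but pericentral replicate 1. Complement and coagulation factors had 2 of 35 called, Cfi (0.78) and C8g (0.53), both higher in periportal hepatocytes, and both calls were lost without pericentral replicate 1 or 3 or periportal replicate 3, and that of C8g also without periportal replicate 2.

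**Figure D2:**
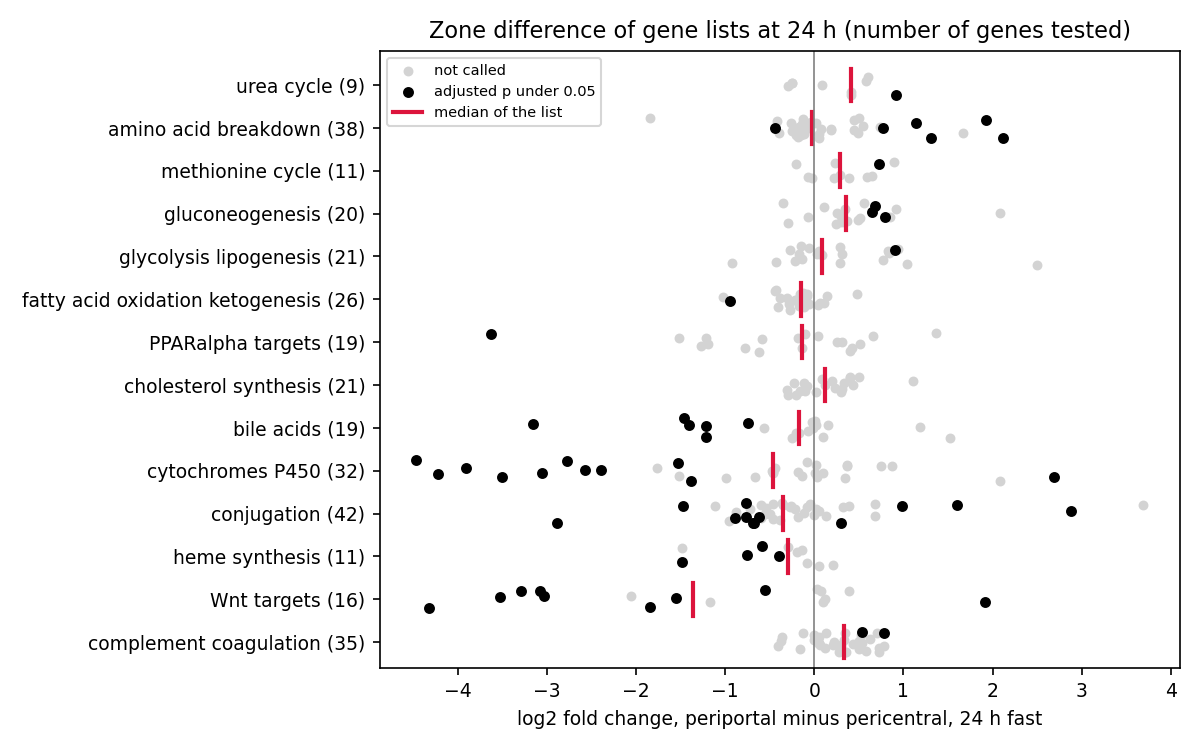
Log2 fold change, periportal minus pericentral, at 24 h (horizontal) of the tested members of 14 gene lists (vertical), with 1 point per gene, called genes in black and the median of each list as a bar. The Wnt target list has a median of -1.36 and the cytochrome P450 list one of -0.46, while the medians of the fatty acid oxidation and PPARalpha lists are -0.15 and -0.14.

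The largest differences, list members included, were named by a rule of size. In the pericentral direction these included Rdh9, a retinol dehydrogenase, at 195, 111 and 221 CPM against 12.5, 11.1 and 8.55 CPM (log2 fold change -4.04, SE 0.35, edgeR adjusted p = 9.39e-05). Lhpp, a phosphatase, stood at 67.6, 24.1 and 80.4 CPM against 4.36, 3.24 and 1.79 CPM (log2 fold change -4.21, SE 0.53, edgeR adjusted p = 0.000532). Pparg, a nuclear receptor of lipid storage, stood at 20.6, 15.5 and 23.2 CPM against 1.84, 1.16 and 0.322 CPM (log2 fold change -4.18, SE 0.56, edgeR adjusted p = 0.000671). Fitm1, a protein of lipid droplet formation, Aldh3a2, a fatty aldehyde dehydrogenase, Nxpe2 and Cyp2c38 followed with log2 fold changes of -3.86, -3.73, -4.12 and -4.22. These 7 calls held in every alternative. Mup19, a major urinary protein, had a log2 fold change of -4.83 (SE 0.93, edgeR adjusted p = 0.0088), at 16100, 3880 and 6780 CPM against 643, 129 and 171 CPM. The Mup genes are near-identical copies, so its level is uncertain, and the call was lost without periportal replicate 3.

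In the periportal direction, Tent5c, a poly(A) polymerase, stood at 3.59, 3.53 and 2.92 CPM in pericentral and 18.1, 27 and 40.9 CPM in periportal libraries (log2 fold change 3.09, SE 0.39, edgeR adjusted p = 0.000395). Fgfr2, a fibroblast growth factor receptor, stood at 2.38, 9.41 and 4.35 CPM against 39.7, 34.5 and 57.5 CPM (log2 fold change 3.02, SE 0.37, edgeR adjusted p = 0.000352), with 3.72 without pericentral replicate 2. Setd7, a lysine methyltransferase, stood at 2.46, 3.09 and 1.53 CPM against 16.4, 15.3 and 21.5 CPM (log2 fold change 2.89, SE 0.32, edgeR adjusted p = 0.000159). None of the pericentral libraries reached the lowest periportal one for these genes. Sulf2, a heparan sulfatase, Cdh1, the adhesion protein E-cadherin, and Slc30a10, a manganese exporter, had log2 fold changes of 2.59, 2.21 and 1.98. These calls held in every alternative except that of Fgfr2, which was lost when only the 6 libraries at 24 h were fitted. Serpina12, Ctsc (cathepsin C), Cryl1 and Btg2 were called at 2.58, 2.50, 2.29 and 2.12. The call of Cryl1 was lost without pericentral replicate 1, that of Ctsc without pericentral replicate 1 or 3 or periportal replicate 3, and that of Btg2 without pericentral replicate 2 or 3 or periportal replicate 2 or 3.

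**Figure D3:**
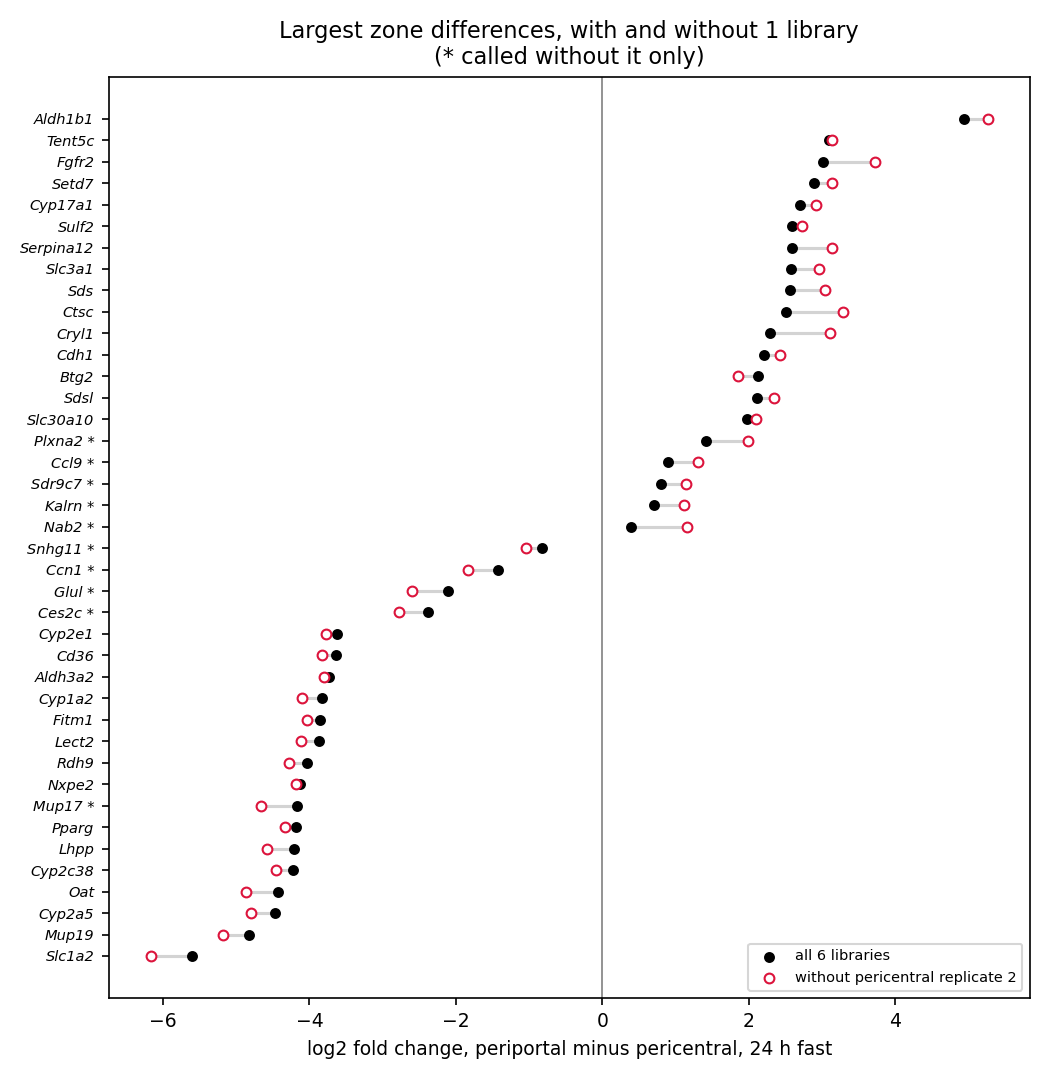
Log2 fold change, periportal minus pericentral, at 24 h (horizontal) of the 15 largest called differences in each direction and of the 10 genes called only without pericentral replicate 2 (starred), with all 6 libraries (black) and without that library (open). Slc1a2 moves from -5.60 to -6.17 and Fgfr2 from 3.02 to 3.72, while Btg2 moves the other way, from 2.12 to 1.85.

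Leaving out pericentral replicate 2 brought 74 genes into the called list and removed 137. Beside Glul, the genes brought in with the largest differences included Plxna2, a semaphorin receptor, at 5.94, 13.6 and 5.09 CPM in pericentral and 23.3, 16 and 26.6 CPM in periportal libraries, where the log2 fold change went from 1.41 (edgeR adjusted p = 0.109) to 1.99 (edgeR adjusted p = 0.0352). Ccl9, a chemokine, stood at 14, 27.4 and 13.8 CPM against 38.4, 31.1 and 33.8 CPM, and went from 0.90 (edgeR adjusted p = 0.0809) to 1.31 (edgeR adjusted p = 0.00615). Ccn1, a matrix protein, stood at 16, 4.34 and 14.8 CPM against 4.86, 3.41 and 4.78 CPM, and went from -1.43 (edgeR adjusted p = 0.105) to -1.83 (edgeR adjusted p = 0.00933). In each of them the level of pericentral replicate 2 lay on the periportal side of its fellow libraries. Mup17, Ces2c, Nab2, Sdr9c7, Kalrn and Snhg11 also entered. The genes lost included Cyp7a1, Cyp17a1, Btg2, Mup20, Fmo2, Aqp4, Klhdc7a, Nrep, Dclre1a and Ier2, and their log2 fold changes without that library ran from -3.26 for Cyp7a1 to 2.92 for Cyp17a1. Of the 8 called genes whose zones overlapped at 24 h, 5 overlapped only through pericentral replicate 2.

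Markers of other cells of the liver were low and differed between libraries. The summed level of 11 sinusoidal endothelial markers was 7.69, 14.9 and 18 CPM in pericentral replicates 1 to 3 and 7.32, 31.1 and 34.3 CPM in periportal replicates 1 to 3. That of 11 Kupffer cell and leukocyte markers was 3.67, 8.97 and 8.69 CPM against 2.68, 16 and 32.6 CPM. None of these 22 genes was called, and for all of them the zones overlapped. The log2 fold change was nonetheless positive for 10 of the 11 endothelial and all 11 Kupffer cell and leukocyte markers. The medians of these 2 lists were 1.02 and 1.61 at 24 h, 1.51 and 2.18 in fed mice and 2.52 and 2.16 at 8 h. Hemoglobin genes summed to 0.39, 3.05 and 7.61 CPM against 2.91, 2.87 and 52.8 CPM, so that periportal replicate 3 stood highest in each of these lists. Stellate cell markers (3 tested) summed to 1.36 to 4.7 CPM in pericentral and 2.17 to 9.39 CPM in periportal libraries. Of the cholangiocyte markers 2 of 3 were called, Sox9 at 2.42 to 4.49 CPM in pericentral and 6.73 to 8.51 CPM in periportal libraries (log2 fold change 1.21, SE 0.20, edgeR adjusted p = 0.00153), and Spp1 at 5.39 to 6.25 CPM against 11.6 to 25.1 CPM (edgeR adjusted p = 0.0135), whose call was lost without pericentral replicate 1 or 3 or periportal replicate 3. The defining cholangiocyte markers Krt19 and Epcam did not pass the filter on low counts, and neither did any of the 5 lymphocyte and neutrophil markers. Genes that respond to cell isolation, such as immediate early and heat shock genes, summed to 2230, 1560 and 2270 CPM in pericentral and 1790, 1970 and 3370 CPM in periportal libraries. Of 19 such genes 2 were called higher in periportal hepatocytes, Btg2 and Ier2, and 0 without pericentral replicate 2 (1.7% and 1.41% over all genes). The part of these levels in the zone differences was not tested.

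The zone differences at 24 h were set beside those of the fed and 8 h mice. The 3 feeding states had separate libraries in each zone, and 362 of the 520 genes called at 24 h were also called in fed mice (69.6% of the 520 and 36.2% of the 1000 called in fed mice). At 8 h, 345 were called (66.3% of the 520 and 38.7% of the 891 called at 8 h). The direction was the same for 503 of the 520 in fed mice and 507 at 8 h. In each state 3 libraries per zone entered the same fit, and the counts called in fed and 8 h mice were 8.01% and 7.14% of the genes tested.

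To describe the known zonation without the 24 h libraries, genes were chosen on the fed and 8 h libraries alone, with an edgeR adjusted p under 0.05, an absolute log2 fold change of 1 or more and 10 CPM or more, on average, in the zone where the gene was higher. This gave 120 pericentral and 111 periportal genes. All 120 pericentral genes had the same direction at 24 h and 84 were called (70%), or 91 without pericentral replicate 2. Their median log2 fold change was -1.99 in the fed and 8 h libraries and -1.67 at 24 h, or -1.78 without that library. Of the 111 periportal genes, 108 had the same direction and 61 were called (55%), or 63 without it. Their median was 1.68 in the fed and 8 h libraries and 1.12 at 24 h, or 1.29 without it. The median ratio of the difference at 24 h to that in the fed and 8 h libraries was 0.843 for the pericentral and 0.585 for the periportal genes, and 0.907 and 0.738 without pericentral replicate 2. Genes taken for a large difference in one set of libraries tend to show a smaller one in others, so the ratios are a description, and no test was made of them or of their difference.

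**Figure D4:**
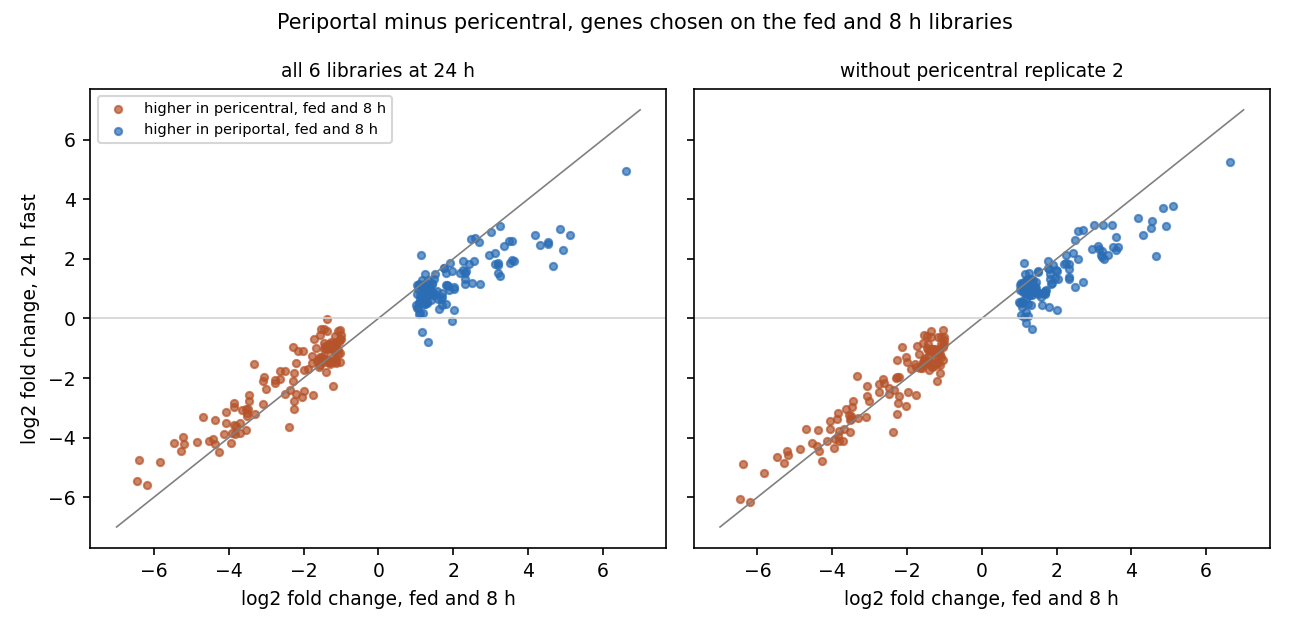
Log2 fold change, periportal minus pericentral, in the fed and 8 h libraries (horizontal) against that at 24 h (vertical) for the 120 pericentral and 111 periportal genes chosen on the fed and 8 h libraries, with all 24 h libraries (left) and without pericentral replicate 2 (right). The line marks equal values. The median ratio of the vertical to the horizontal value of the periportal genes is 0.585 on the left and 0.738 on the right.

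Each 24 h library was then placed between the zone means of the fed and 8 h libraries, where 0 is the pericentral and 1 the periportal mean. On the pericentral genes, pericentral replicates 1 to 3 had median positions of 0.03, 0.33 and 0.12, and periportal replicates 1 to 3 had 0.91, 1.06 and 1.11. On the periportal genes, the pericentral replicates had 0.23, 0.52 and 0.26 and the periportal ones 0.96, 0.96 and 1.04. The periportal medians thus lay near the fed and 8 h periportal mean on both sets. The medians of all 3 pericentral libraries lay above 0 on both sets, pericentral replicate 2 the farthest. The lower quartile was below 0 on the pericentral genes for pericentral replicates 1 (-0.14) and 3 (-0.1). On the periportal genes it was below 0 for pericentral replicate 3 (-0.12). The genes were chosen on the libraries that set 0 and 1, so the positions are a description and were not tested.

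**Figure D5:**
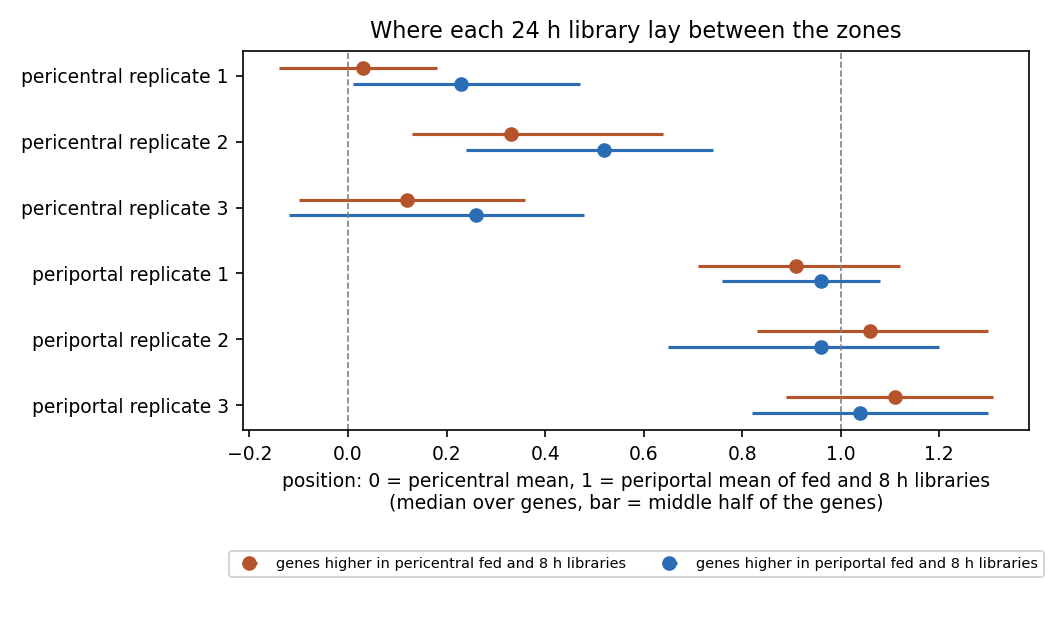
Position of each 24 h library (vertical) on a scale where 0 is the pericentral and 1 the periportal mean of the fed and 8 h libraries (horizontal), as the median over 120 pericentral and 111 periportal genes with a bar from the lower to the upper quartile. Pericentral replicate 2 lies at 0.33 and 0.52, above the other pericentral libraries at 0.03 to 0.26.

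Single genes are given side by side in the 3 states. In fed, 8 h and 24 h mice, in that order, Sds had log2 fold changes of 4.91, 4.13 and 2.56, and Cyp2f2 had 3.60, 3.45 and 1.86. Among pericentral genes it was -4.02, -3.60 and -3.63 for Cyp2e1 and -3.79, -3.18 and -3.03 for Axin2. Gldc had 2.64, 1.86 and 1.93, Fbp1 0.94, 1.02 and 0.79, and Pck1 2.87, 1.14 and 0.30. Whether a zone difference at 24 h differed from that in fed mice was tested for every gene, and 2 of 12477 genes (0.016%) were called by edgeR, with 962 at an unadjusted p under 0.05. DESeq2 called 38 and limma-voom 0. Pck1 was not among the 2 genes, with a change of -2.57 (SE 0.66, edgeR adjusted p = 0.345). Ctnnbip1 was: in fed mice it stood at 1.28, 1.65 and 1.83 CPM in pericentral and 32.8, 28 and 32.4 CPM in periportal libraries, and its change was -2.38 (edgeR adjusted p = 0.0159). The pericentral level was the one that differed most between the states, at 1.28 to 1.83 CPM in fed mice, 3.12 to 3.44 CPM at 8 h and 4.55 to 10.1 CPM at 24 h, and pericentral replicate 2 gave the highest of these values. Scg2, a secretory granule protein, was the other gene called, at under 1 CPM in every library and at 0 in the 3 pericentral fed libraries. Without pericentral replicate 2, 2 of 12733 genes (0.0157%) were called, Ctnnbip1 and Nfkbie, an inhibitor of NF-kappaB that was at 0 in both remaining pericentral libraries at 24 h.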

How the data were processed

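RNA-seq of hepatocytes from both zones was deposited as 1 table of estimated counts per gene for 18 libraries, and the authors used kallisto 0.46.0 with mm10, per the submitters' processing notes. The use of strand is not given in the sources used here, so overlapping and antisense genes could not be told apart. The expected (estimated) counts were rounded to units of 1. Differences were tested by quasi-likelihood in edgeR 4.0.16 (R 4.3.3, robust F test, TMM, filterByExpr), in 1 fit of 18 libraries with 6 groups and no covariates, and again without pericentral 24 h replicate 2. P-values were adjusted by Benjamini-Hochberg over all genes tested. The SE is the absolute log2 fold change over the root of its F statistic. The fit was tested on simulated data. Depth is given in the report, and the number of libraries, 3 per group, limits the precision of each comparison. Replicates within each zone at 24 h were compared for repeated libraries and none were found, with a chi-square per gene of 35 to 98.9 between them. The fed and 8 h libraries were not compared in this way.

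The members and gene lists were chosen with earlier results of these data known. Named were up to 4 called members per list and direction with the smallest p, the 15 largest called differences in each direction with at least 10 CPM and no overlap between zones, the 10 largest called only with or only without pericentral replicate 2, and every gene whose zone difference changed. Sp5, Tnfrsf19 and Tbx3, further Wnt targets, and the uncalled genes were named after their values were seen. Some list members are counted but not reported by name here. The deviations of same-numbered libraries from their group means correlated at 24 h with r = 0.121, 0.165 and 0.147 over genes, which are not independent, and those of differently numbered libraries with -0.121 to -0.024. Deviations within a group cancel out, so positive same-number values bring negative ones elsewhere, and the latter are no separate evidence. The numbers may pair the zones at 24 h, which was not tested, and the labels do not say so. In fed and 8 h mice the same-number values were -0.011 to 0.071. Alternatives were DESeq2 size factors, TMM without the 20 most abundant genes, no filter, a mean of 1 CPM, only the groups compared, replicate blocks, DESeq2 1.42.0 (Wald), limma 3.58.1 (voom) and each library left out. Promoters came from RefSeq (GRCm38.p6), without chromosome 18.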

Additional observations from a re-analysis of the deposited data

Results flagged for a closer look

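The zone difference changed between fed mice and mice fasted for 24 h, by the edgeR test of the difference itself, for 2 genes. For Ctnnbip1, an inhibitor of beta-catenin, the log2 fold change between zones was 4.29 in fed mice and 1.92 at 24 h, a change of -2.38 (edgeR adjusted p = 0.0159), and both zones kept their order in each library. Periportal levels were 28 to 32.8 CPM in fed mice and 22.7 to 27.6 CPM at 24 h. The change was not called when the replicate number was a block, by limma-voom, when only the fed and 24 h libraries were fitted, when any 1 of the 3 pericentral fed libraries or periportal fed replicate 1 was left out, or when periportal 24 h replicate 2 or 3 was left out, with adjusted p-values of up to 0.144. For Scg2 the fitted change was -7.05 (edgeR adjusted p = 0.0473). Its levels were 0 in the 3 pericentral fed libraries, 0.24 to 0.661 CPM in the periportal fed ones and 0.333 to 0.791 CPM in the 6 libraries at 24 h, so this value rests on a few counts and is not a measure of size.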

How the results depend on the processing

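The 520 genes called between the zones at 24 h numbered 388 to 523 under other scalings, filters, limma-voom, replicate blocks or a fit of the 6 libraries alone, and 821 (362 higher and 459 lower in periportal hepatocytes) with the Wald test of DESeq2. Leaving out 1 of the 6 libraries gave 252 (periportal replicate 3) to 490 genes, 92 to 199 higher and 160 to 291 lower. Without pericentral replicate 2, 457 genes became 409 to 468 under those alternatives and 716 (321 higher, 395 lower) with DESeq2. With the replicate block within each feeding state they became 269 (114 higher, 155 lower), and leaving out another library gave 205 to 451, 56 to 180 higher and 149 to 271 lower. With 1 replicate block over all states the counts were 516 with and 447 without pericentral replicate 2. The 2 genes whose zone difference changed from fed became 1 with a mean of 1 CPM, 0 with either replicate block or limma-voom, 38 with DESeq2 and 0 to 4 when 1 library was left out. In a fit of the fed and 24 h libraries alone 2 genes were called, neither of them Ctnnbip1 or Scg2. The cause was not tested. Of the named called genes, 34 of 108 were not called in a fit of the 6 libraries alone, and 42 of 109 without periportal replicate 3. The genes tested had a median log2 fold change between zones of -0.002 to 0.008 under the alternatives to scaling, filter and tool. Depth limits genes under 1 CPM, such as Sp5 and Scg2.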

Other observations

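Of the 520 genes called between the zones at 24 h, 118 were called in neither the fed nor the 8 h libraries, 41 higher and 77 lower in periportal hepatocytes. A call in 1 state and not in another does not show that the states differ, and the change from fed was called for 2 genes. The following examples were chosen after their values were seen, from those with the largest differences. Tle3, a corepressor of Wnt target genes, had a log2 fold change of -1.39 at 24 h (edgeR adjusted p = 0.00488), -0.76 in fed mice and -0.47 at 8 h. Mme, the membrane peptidase neprilysin, was at -1.52 (edgeR adjusted p = 0.00743), -0.95 and -0.92. Ugdh, which makes the UDP-glucuronic acid used in conjugation, was at -0.92 (edgeR adjusted p = 0.00669), -0.38 and -0.55. In the periportal direction Ccnf, a cyclin, was at 1.21 (edgeR adjusted p = 0.00844), 0.34 and 0.21. All 4 were also called without pericentral replicate 2, with log2 fold changes of -1.47 for Tle3, -1.72 for Mme, -0.96 for Ugdh and 1.47 for Ccnf.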
